A study of Drosophila melanogaster with 10 samples.

Results

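A set of 222 genes stood high in a single library of *Drosophila melanogaster* larvae that were all collected as females, and many of its named members were genes of spermatogenesis. The genes were chosen by their counts in that library, labelled 51B/+ replicate 3. A gene was taken if it had at least 30 counts there and if its CPM (the count scaled by its library's own total) was at least 4 times the largest CPM of the other 9 libraries. Of the 17402 genes in the count table, 10364 had at least 30 counts in this library and 227 also passed the fold. After 5 long noncoding RNAs were left out, 222 genes remained, and the annotation held symbols and coordinates for 219, all of them protein-coding. The rule also left out 10 named regulators of spermatocyte transcription. Of these, 9 were matched to the table and 0 of the 9 passed the count and fold, while rye was not matched and was not analysed here. When each of the other 9 libraries was put in the place of the high library, the same count and fold found between 0 and 5 genes.

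mRNA of whole female larvae of the third instar had been sequenced with 2 libraries for each of 5 strains, numbered replicate 3 and replicate 4. The strains were labelled 51B/+ (heterozygous for the null allele 51B of AGO2), 51B (that allele with no second allele named), V966M/+ (heterozygous for V966M, an allele that alters the catalytic function of AGO2), V966M, and w, the control. AGO2, an Argonaute protein of RNA interference, was mutated in the first 4, and the study asked which genes depend on it apart from catalysis. The sources used here do not give the number of larvae in a library. They do not say whether 2 libraries of a strain came from separate cultures either, so the p-values measure the spread between these libraries, which may be technical.

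Male germ cells of the fly switch on a large set of genes as spermatocytes, before the meiotic divisions. This switch needs testis versions of the TBP-associated factors (testis TAFs) and a testis complex called tMAC. Many of the genes encode testis forms of proteins that other tissues make from a second gene, and others build the sperm tail, its mitochondrial derivative and the compact sperm nucleus. Female larvae have no testis, and a larval testis holds spermatocytes but no finished sperm.

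Total counts were 38930502 to 60886803 in the libraries numbered replicate 3 and 22337432 to 26129296 in those numbered replicate 4, and a count of 0 allowed a level of up to 0.0493 to 0.134 CPM (3 counts, counting error only). AGO2 went against a label. It had 176 and 65 counts (3.74 and 2.85 CPM) in the libraries labelled 51B/+ and 3559 and 2006 counts (91.4 and 89.8 CPM) in those labelled 51B, against 12537 and 3612 counts (244 and 149 CPM) in w. The sample titles name the allele in duplicate for 51B/+ and once for 51B, and likewise in duplicate for V966M/+ and once for V966M, so every strain name here is that of the label only. The pair of libraries in each strain differed beyond sampling noise (chi-square of 118 to 228 per degree of freedom), so neither was taken for a copy of the other, which does not show that they came from separate animals.

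The members together had 16661 counts in 51B/+ replicate 3 and 239 counts in 51B/+ replicate 4, where the level of replicate 3 would have given 8079. They had 456 and 186 counts in 51B, 539 and 287 in V966M/+, and 1037 and 187 in V966M, against 542 and 199 in w (replicate 3 before replicate 4 in each pair, here and in all pairs of counts that follow). Scaled to the library, this was 354 CPM (95% Poisson interval 349 to 360) in 51B/+ replicate 3 and 7.48 to 17 CPM in the other 9 libraries. The chosen library lay 20.8-fold above V966M replicate 3, the next highest, and 47.4-fold above V966M replicate 4, the lowest. The partner library of the same strain, at 10.5 CPM (9.2 to 11.9), lay among the other strains. These sums used the values that chose the members and are a description.

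**Figure D1:**
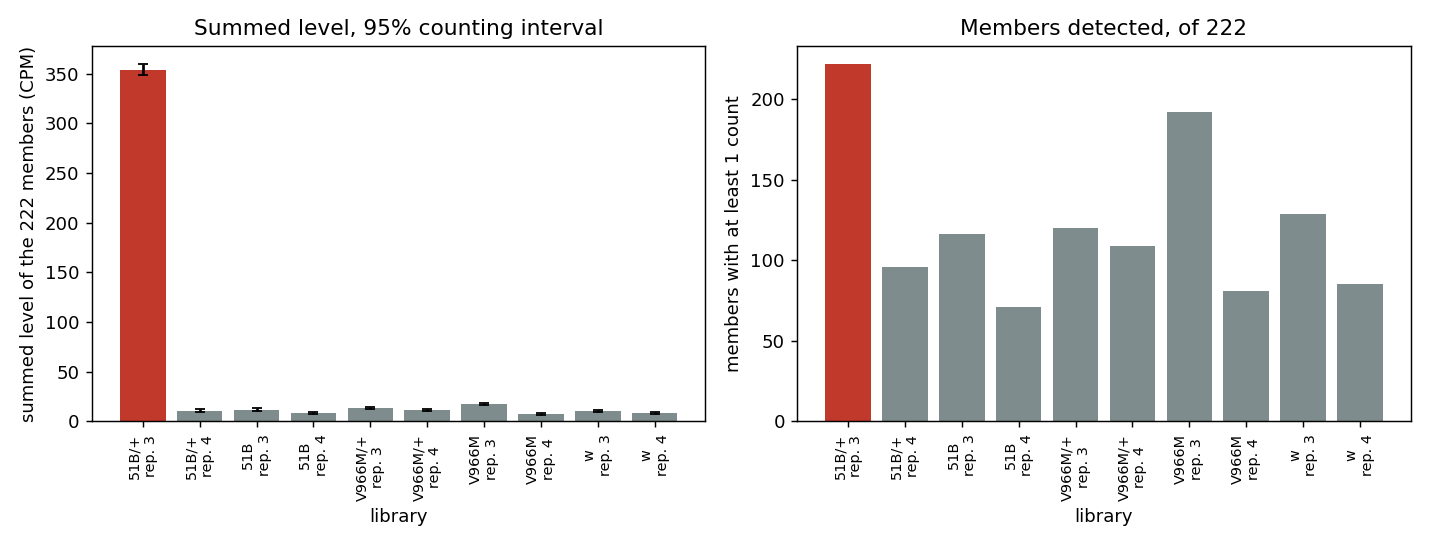
Summed level of the 222 members in CPM with 95% Poisson intervals (left) and number of members with at least 1 count (right) in each of the 10 libraries, with 51B/+ replicate 3 in red. The sum was 354 CPM in 51B/+ replicate 3 and at most 17 CPM elsewhere, and V966M replicate 3 had a count for 192 members, the most of the other 9 libraries.

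Single members had 30 to 537 counts in 51B/+ replicate 3, with a median of 51, or 0.638 to 11.4 CPM with a median of 1.08. There were 34 members with at least 100 counts, 82 with 50 to 99 and 106 with 30 to 49. Most were low elsewhere: 89 members had over 3 counts in none of the other libraries, 7 were at 0 in all of them, and 136 lay at least 10-fold above their next library or had no count elsewhere. The median fold over the next library was 12.4. Counts just inside the fold were those of gskt (4-fold), Trf4-2 and B9d1 (4.04-fold each), and just outside it were RpL22-like (3.93-fold), CG31445 (3.9-fold) and COX4L (3.89-fold). CG17666, CG31948 and CG42523 entered with 30 counts, whereas CG15572, CG15459 and CG7295 stayed out with 29. The set therefore had no sharp edge: 22 members had a fold of 4 to 5 and 32 further genes with enough counts a fold of 3 to 4.

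**Figure D2:**
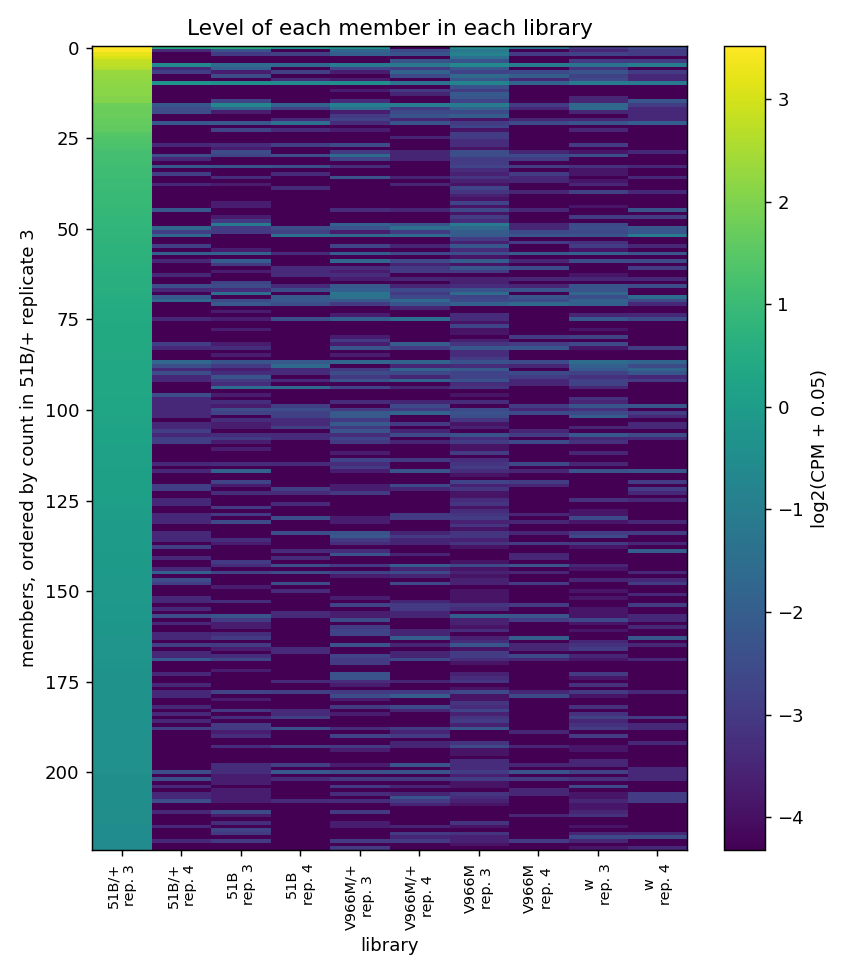
Level of each of the 222 members, 1 per row and ordered by count in 51B/+ replicate 3, in the 10 libraries (log2 of CPM + 0.05, colour). The first column is high in all rows because the rule chose it so, and among the other 9 columns V966M replicate 3 has the fewest rows at 0 (30 of 222).

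Sperm leucyl aminopeptidases, abundant proteins of the sperm mitochondrial derivative, led the set, and all 7 genes of their list were members. S-Lap1 (3L, 8617235 to 8619474, dm6) had 537 and 1 counts in 51B/+, 6 and 0 in 51B, 10 and 3 in V966M/+, and 23 and 0 in V966M, against 2 and 2 in w. S-Lap4 (3L, 10490861 to 10492934) had 208 and 0 counts in 51B/+ and 9 in V966M replicate 3, and it was at 0 in the remaining libraries. S-Lap8, S-Lap3, S-Lap7, S-Lap2 and S-Lap5 had 204, 202, 193, 154 and 49 counts in 51B/+ replicate 3. In 51B/+ replicate 4 all 7 genes together had 3 counts. The family summed to 32.9 CPM in the chosen library and 0 to 1.18 CPM in the others, a gap that the rule itself requires of each member, and the highest of the others was V966M replicate 3 with 72 counts. loopin-1 (2R, 16534943 to 16537086), a related protein of the same structure, had 284 and 1 counts in 51B/+, against 3 and 0 in w.

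Other members encode testis forms of mitochondrial and metabolic proteins. Of 25 such genes 24 were highest in 51B/+ replicate 3 and 7 were members, loopin-1 among them, and the list summed to 32.4 CPM there and 0.906 to 3.06 CPM elsewhere. Hsp60C (2L, 5662849 to 5670838), a mitochondrial chaperonin, had 225 and 0 counts in 51B/+, 5 and 0 in 51B, 0 and 3 in V966M/+, and 17 and 5 in V966M, against 5 and 1 in w. TrxT (X, 5310581 to 5311888), the testis thioredoxin, had 219 and 0 counts in 51B/+ and 10 and 1 in V966M, against 6 and 1 in w. Both genes were thus abundant in one library and at 0 in its partner. Hsp60B had 126 and 0 counts in 51B/+ and was otherwise seen in V966M replicate 3 alone, with 5 counts. ATPsynbetaL, a second beta subunit of ATP synthase, had 103 and 1 counts in 51B/+, Cyt-c-d, the cytochrome c of the male germ line, 68 and 1, and ND-49L, a form of a complex I subunit, 45 and 1. Fum3 and Scsalpha2, named for fumarase and for the alpha subunit of succinyl-CoA synthetase, are on no list and had 48 and 1, and 72 and 0 counts in 51B/+.

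General forms of the same proteins mostly lay among the other libraries. Over 18 pairs of a member and its general form, of which 11 were added after the values were seen, the member was at 0.0166% to 5.49% of the CPM of the general form in 51B/+ replicate 3. TrxT was at 4.66 CPM there, beside 146 CPM for Trx-2, which ran from 123 to 197 CPM in the other 9 libraries. Hsp60B and Hsp60C were at 2.68 and 4.79 CPM, beside 372 CPM for Hsp60A (261 to 483 CPM in the others), and Prosbeta5R1, a testis form of a proteasome subunit, was at 0.681 CPM beside 257 CPM for Prosbeta5 (243 to 621 CPM). Of the 17 general forms, 16 lay within the range of the other 9 libraries and Hex-A, a hexokinase, lay above it (168 CPM, against 81.8 to 154 CPM). Hex-A was not called between 51B/+ and w (log2 fold change 0.51, SE 0.29, edgeR adjusted p = 0.533), nor was any other of the 17.

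**Figure D3:**
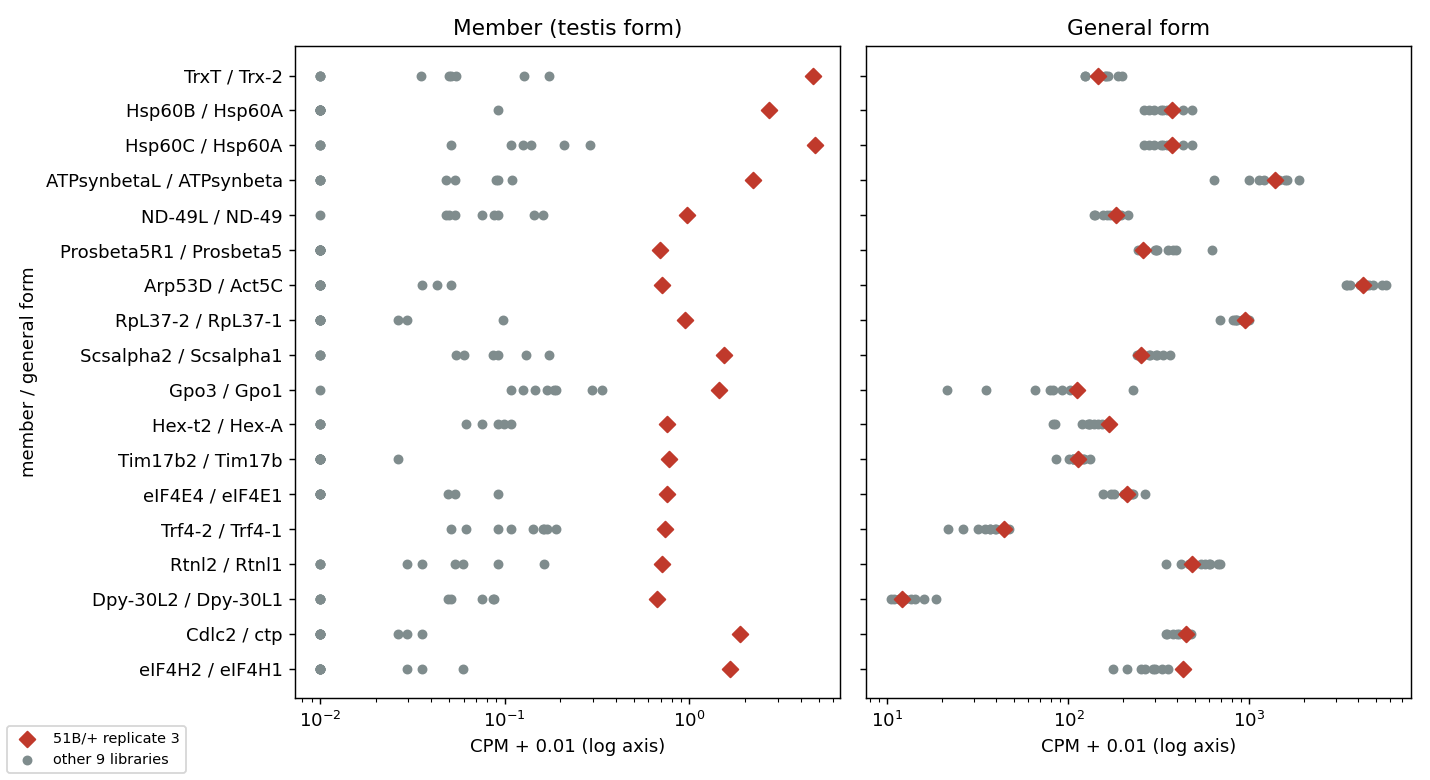
CPM + 0.01 on log axes of 18 members (left) and of the general form of each (right), with 51B/+ replicate 3 as a red diamond and the other 9 libraries as grey points. The members are high in 51B/+ replicate 3 by the rule that chose them, while 16 of the 17 general forms lie within the range of the other libraries.

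Genes of the sperm tail and of its microtubules formed the next group. betaTub85D (3R, 9408383 to 9410282), the beta-tubulin of the male germ line, had 309 and 14 counts in 51B/+, 11 and 6 in 51B, 17 and 10 in V966M/+, and 36 and 11 in V966M, against 17 and 11 in w. It was among the members that kept a low level in every library. Mst84Db and Mst84Dc, small sperm tail proteins, had 118 and 101 counts in 51B/+ replicate 3 and were otherwise counted in V966M replicate 3 alone, with 3 and 5 counts. ocn (92 and 0 counts in 51B/+), dj (77 and 2), djl (55 and 1), Mst98Ca (62 and 0) and Mst98Cb (38 and 1) were members too, so that 8 of the 18 genes of the sperm tail list belonged to the set. Arp53D, an actin-related protein of the testis, had 33 and 0 counts. A further 11 members are dynein, kinesin-13, radial spoke, tubulin-modifying, transition zone or other ciliary proteins by name or known role (Cdlc2, robl62A, Dnali1, Klp59C, Klp59D, Rsph4a, hmw, TTLL3B, B9d1, Dnaaf6 and Spag1), a group put together after the values were seen. They summed to 603 and 10 counts in 51B/+ (12.8 and 0.439 CPM) and to 0.301 to 0.651 CPM in the other 4 strains, w included. All 11 were taken from the members, so the rule itself requires this gap. Of the 15 genes on the axoneme list, 2 were members and 7 were highest in 51B/+ replicate 3.

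Proteins that replace or pack histones in the spermatid nucleus were low but had the same profile. All 8 genes of that list were highest in 51B/+ replicate 3, 5 of them as members, and they summed to 331 and 11 counts in 51B/+ (7.04 and 0.483 CPM), with 0.103 to 0.483 CPM over the other 9 libraries. The transition protein Tpl94D had 42 and 0 counts in 51B/+, against 1 and 0 in w. The HMG box genes tHMG1 and tHMG2 had 49 and 57 counts in 51B/+ replicate 3 and at most 3 in any other library, and Mst33A had 38 and 0 in 51B/+. Mst77F, a linker histone-like protein of sperm, lay near the threshold with 80 and 6 counts in 51B/+, against 8 and 10 in w. Copies of Mst77F stand on the Y chromosome, and reads of near-identical copies may have been divided or lost.

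Regulators and translation factors were among the less abundant members. tbrd-1 and tbrd-2, testis bromodomain proteins that act with the testis TAFs, had 52 and 2, and 37 and 0 counts in 51B/+, and tbrd-2 was at 0 in all other libraries. fest, which acts in spermatocytes on the translation of cyclin B, had 193 and 0 counts in 51B/+, against 2 and 4 in w. eIF4E4, a cap-binding factor of the testis, had 35 and 1 counts in 51B/+, and Gld2, a cytoplasmic poly(A) polymerase needed in the male germ line, had 159 and 4, against 13 and 2 in w. Some of the testis TAFs and tMAC subunits themselves were lower. nht had 21 and 0 counts in 51B/+, and sa, can, aly, tomb and comr had 20, 17, 13, 11 and 6 in replicate 3. These were all under the count of the rule. Others were not: achi, mia, topi and vis had 140, 107, 96 and 53 counts there. For achi, mia and topi another library was higher, with 51B/+ replicate 3 at 0.606, 0.541 and 0.808 of its CPM. The list of 10 genes summed to 10.3 and 7.94 CPM in 51B/+, within the 5.81 to 11.7 CPM of the other libraries, although 7 of the 10 were highest in 51B/+ replicate 3. wuc, a relative of Lin-52, is not named in the rule and stayed a member with 40 and 0 counts in 51B/+, against 6 and 1 in w.

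Several of the 12 most abundant members carry only a CG number, as do 138 of the 222. CG13445 (3L, 15809485 to 15809977) had 537 and 30 counts in 51B/+, 54 and 20 in 51B, 29 and 0 in V966M/+, and 41 and 9 in V966M, against 4 and 3 in w. CG4836 (3R, 20013872 to 20018248) had 440 and 0 counts in 51B/+ and 30 and 2 in V966M, against 5 and 2 in w. CG12699 (2R, 17246530 to 17247383) had 397 and 0 counts in 51B/+ and 19 in V966M replicate 3, and was at 0 in every other library. CG13445 was therefore not limited to the chosen library, whereas CG12699 was seen in 2 libraries only. CG10252 (3R, 23695221 to 23696245), CG34434 (X, 5614554 to 5616370) and CG7886 (3R, 14626676 to 14642563) had 324 and 0, 229 and 2, and 210 and 18 counts in 51B/+, against 4 and 2, 8 and 2, and 21 and 10 in w. Per kilobase of exon, the levels in 51B/+ replicate 3 were highest for CG13445 (26.5 RPKM), CG12699 (11 RPKM), CG10252 (8.27 RPKM) and Mst84Db (6.05 RPKM), and S-Lap1 was at 5.39 RPKM.

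To describe the set, its members were set beside lists of testis germ line genes and of other cell types, which were drawn up with earlier results of these data known. Of the 222 members, 34 were on a testis germ line list. Those lists held 131 genes, with the testis TAFs and tMAC left out. Of the 131, 100 (76.3%) were highest in 51B/+ replicate 3, as the rule requires of the 34 members, and 126 had at least 1 count there. The 97 that were no members were highest there in 68% of cases, beside 16.5% of all genes with a count that were no members. On the lists of other cell types, the Y chromosome left out, none (0) of 49 genes was a member and 9 (18.4%) were highest in that library. Early germ line genes, used by both sexes, summed to 40 CPM in 51B/+ replicate 3 and 18.5 to 50.4 CPM in the others, genes of the cyst cells and hub of the testis to 160 CPM (121 to 228 CPM in the others), and fat body genes to 62880 CPM (51923 to 71387 CPM). Ovary and egg genes summed to 74.2 CPM there, within the 8.38 to 182 CPM of the others. Seminal fluid genes of the accessory gland were near 0 in all libraries (0.213 CPM, and 0.0412 to 0.214 CPM in the others). The testis genes that stood out were those of some lists and not of others, as given next.

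Testis lists differed in how far they rose above the other libraries. The testis bromodomain list was at 2.25 CPM (at most 0.12 CPM elsewhere), the testis proteasome list at 13.2 CPM (3.52 to 11.7 CPM), with Prosbeta5R1 as its only member at 32 counts and none elsewhere, and the axoneme list at 17 CPM (6.16 to 14.2 CPM), of which betaTub85D and Arp53D were members. Testis forms of the V-ATPase had no member and summed to 23.6 CPM (10.4 to 22.5 CPM), of which Vha36-3 alone gave 21.1 CPM, and the meiosis and translation list, with fest and eIF4E4 as members, to 92 CPM (58.8 to 92.5 CPM). Genes transcribed late, in spermatids, had 1 member of 18, boly with 36 counts, and summed to 36.2 CPM, within the 26.1 to 51.1 CPM of the others. m-cup (18.2 CPM) and f-cup (11.7 CPM), both counted at like levels in all libraries, gave most of that sum, and 10 of the 18 genes were highest in 51B/+ replicate 3. Among them schuy had 17 counts there and 0 in the others, and h-cup had 18 there and at most 1 in any other. A list's sum thus follows its broadly expressed genes. The sperm tail list summed to 64 CPM (36.5 to 60.7 CPM).

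**Figure D4:**
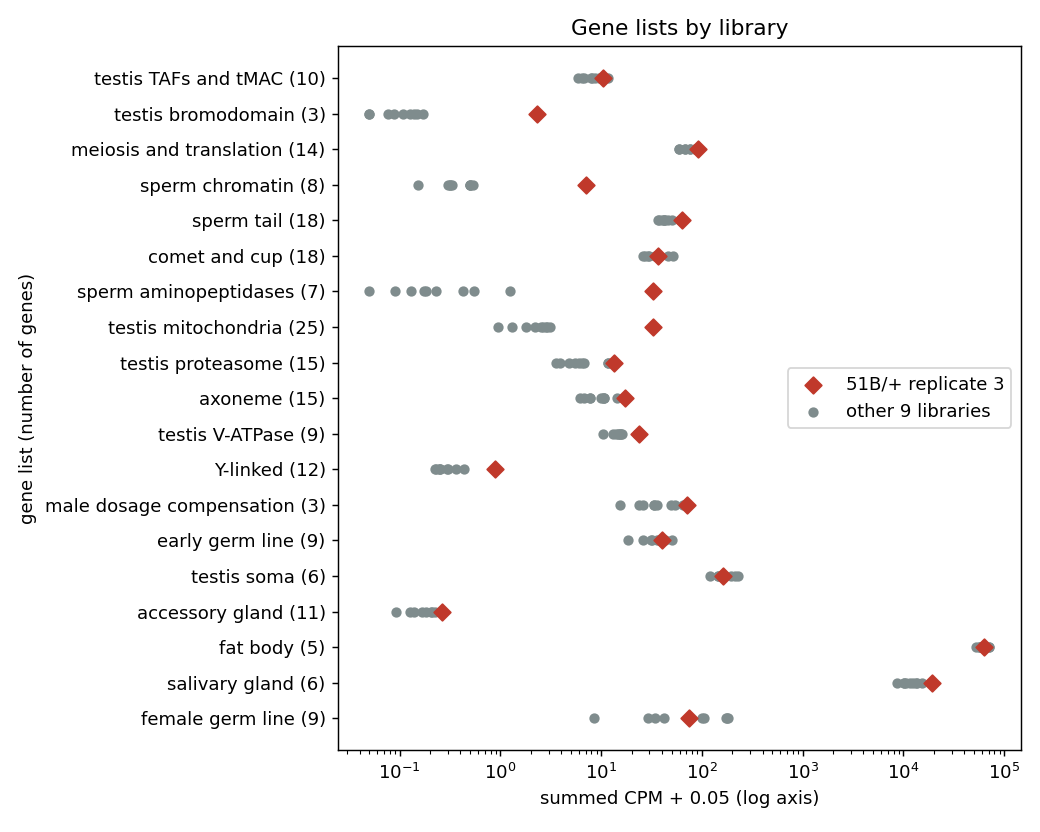
Summed CPM + 0.05 (log axis) of each gene list, number of genes in parentheses, with 51B/+ replicate 3 as a red diamond and the other 9 libraries as grey points. The sperm aminopeptidases (32.9 CPM, at most 1.18 CPM elsewhere), testis mitochondria, sperm chromatin, testis bromodomain and Y-linked lists lie apart from the other libraries, while the testis soma, early germ line and fat body lists lie among them. The Y-linked list is near the floor, and FDY, counted in every library, gives 0.447 of its 0.83 CPM in 51B/+ replicate 3.

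Most Y-linked genes were counted in the same library as the members, at very low counts, while male dosage compensation genes were raised there only in part. The 11 protein-coding genes of the Y chromosome other than FDY summed to 18 counts in 51B/+ replicate 3, where 10 of them were detected, and to at most 1 count in any other library. Each of them had at most 3 counts there, so no single gene among them was measured well. FDY was counted 4 to 21 times in every library and so does not mark a Y chromosome in these data. The 3 male dosage compensation genes summed to 70.2 CPM in 51B/+ replicate 3 and 15.4 to 64.3 CPM in the others, and lncRNA:roX1 alone of them was highest there (58.8 CPM, beside 50.4 CPM in w replicate 3). lncRNA:roX2 was at 1.6 CPM there and 2.47 CPM in w replicate 4, and msl-2, at 9.85 CPM, lay below both V966M/+ libraries (15.3 and 14.4 CPM) and both w libraries (13.4 and 10.3 CPM). The sum of the glue genes of the salivary gland was also highest there (19240 CPM, and 8527 to 15365 CPM in the others). Of the 6 genes 4 were highest there. Sgs7 and Sgs8 were at 5268 and 1097 CPM there, below the 5302 and 2628 CPM of w replicate 4. The part of male material in the result was not tested. In whole larvae, more cells of a type and more RNA per cell cannot be told apart.

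To ask whether the members were raised in any comparison of strains, all genes that reached 10 counts in the sum of a fit's libraries were tested with edgeR, and genes were called at an adjusted p under 0.1. Between 51B/+ and w, 242 of 13551 genes (1.79%) were called, and none (0) of the 222 members, although 160 had an unadjusted p under 0.05 (edgeR) and their median log2 fold change was 4.79, beside 0.02 over all genes. The rule used this contrast, and nothing is read from these values. DESeq2 called 13 members, with 4.17% of all genes called. The 2 libraries of 51B/+ lay far apart for each member, as the counts above show. Without 51B/+ replicate 4, edgeR called 196 members and 6.3% of all genes, with the lone library assumed to vary like the other strains. With the replicate number as a block it called 29 members and 3.51% of all genes.

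The other 9 libraries were then compared without 51B/+ replicate 3. The rule holds each member in them to at most 1 part in 4 of its level in that library, so low values there follow from the choice, and all these comparisons share the w libraries. Without 51B/+ replicate 3, 109 of the 222 members had enough counts to be tested. In 51B/+ replicate 4 against w, where 51B/+ is 1 library assumed to vary like the other strains, edgeR called 0 of the 109 members and 0.827% of all genes, and 2 members had an unadjusted p under 0.05. The median log2 fold change of the 109 members was -0.12, beside -0.03 over all genes. Of them 46 were higher and 58 lower, where 46.3% of all genes were higher. The smallest p were those of CG13445 (3.79 on the log2 scale, SE 1.30, edgeR adjusted p = 0.563) and Bfc (3.71, SE 1.31, edgeR adjusted p = 0.574). DESeq2 called 0 members there and 1.94% of all genes.

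In 51B against w, edgeR called 0 of the 109 members and 1.97% of all genes, and 4 members had an unadjusted p under 0.05. Their median log2 fold change was 0.00, beside -0.03 over all genes. CG13445 (3.79, SE 1.16, edgeR adjusted p = 0.237) and CG6209 (3.50, SE 1.08, edgeR adjusted p = 0.239) were the 2 with the smallest p, and CG13445 was the 1 member that DESeq2 called, with 4.84% of all genes. Both 51B libraries lay above both w libraries for CG13445 (54 and 20 counts, against 4 and 3) and for CG6209 (11 and 6 counts, against 2 and 0). In V966M/+ against w, edgeR called 0 members and 1.56% of all genes, and DESeq2 0 members and 5.33% of all genes. There 4 members had an unadjusted p under 0.05 (edgeR), all lower, beside 12.3% of all genes in either direction. In V966M against w, edgeR called 0 members and 0.148% of all genes, and DESeq2 0 members and 0.601% of all genes. There 2 members had an unadjusted p under 0.05 (edgeR), both higher, beside 4.88% of all genes in either direction.

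V966M replicate 3 held a low level of the same genes. It had counts for 192 of the 222 members, where the other 8 libraries had counts for 71 to 129, and it held 28.2% of the member counts of the 9 libraries but 19.5% of all their counts. Among the 215 members with a single highest library of the 9, V966M replicate 3 was the highest for 63 (29.3%), whereas it was the highest for 3.94% of 15087 other genes and for 4.38% of the 1529 others with 10 to 50 counts. The rule bounds each of these values from above, but it does not choose between the 9 libraries. The genes with 10 to 50 counts do not match the members, since 113 of the 222 had under 10 counts summed over the 9 libraries. At such counts the deepest library is more often the highest by depth alone, so the size of this contrast cannot be read. Counts there followed those of 51B/+ replicate 3 more closely than in any other library, with r = 0.56 and rho = 0.47 across the 222 members on log2(count + 1), beside r of 0.18 to 0.24 in the other 8. Members are not independent replicates, and V966M replicate 3 was also the most deeply sequenced library.

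Members with no other trace were then set apart. There were 32 members at 0 in all libraries except 51B/+ replicate 3 and V966M replicate 3. Of these, 7 were at 0 in V966M replicate 3 too, so the other 25 had a count there by the choice itself. The 32 summed to 88 counts there, beside 2482 in 51B/+ replicate 3, or 2.74% of its level in CPM. Only 12 of the 25 had 3 or more counts in V966M replicate 3. CG12699 (397 and 19 counts, with 51B/+ replicate 3 before V966M replicate 3), S-Lap4 (208 and 9), CG31740 (139 and 6), Hsp60B (126 and 5), Mst84Db (118 and 3) and Mst84Dc (101 and 5) were among them. When each of the other 8 libraries was taken in the same way, 7 to 11 members were at 0 elsewhere and 0 to 4 of them had a count. The level in V966M replicate 3 was 4.33% of that in 51B/+ replicate 3 for the members with at least 100 counts, 5.37% for those with 50 to 99 and 4.86% for those with 30 to 49. The other 8 libraries were at 1.39% to 3.1%, 2.69% to 4.69% and 2.37% to 4.33% for the same classes, so that the gap to the next library was widest in the most abundant class and smaller in the others. Y-linked genes other than FDY were at 0 in V966M replicate 3. With only 18 counts of them in 51B/+ replicate 3, a level as low as that of the members would hardly be seen. The median log2 fold change of the 109 members tested in V966M against w was 0.56, beside -0.03 over all genes. It was -0.40 over the 89 members still tested without V966M replicate 3. The members that dropped out had reached the count filter only through that library. The 2 medians thus cover different members, and the change of sign cannot be read as the effect of 1 library. The source of these counts was not tested.

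**Figure D5:**
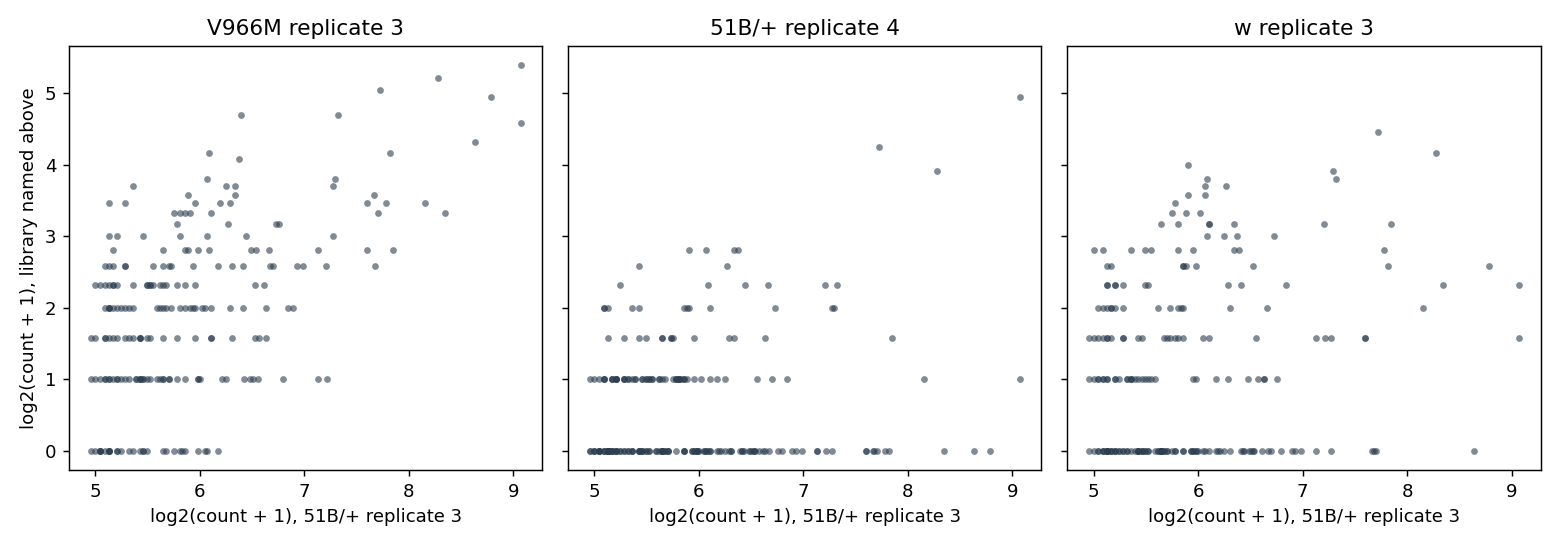
Counts of the 222 members, as log2(count + 1), in V966M replicate 3, 51B/+ replicate 4 and w replicate 3 (panels from left to right) against those in 51B/+ replicate 3. In V966M replicate 3 the counts rise with those of 51B/+ replicate 3 (r = 0.56), while in 51B/+ replicate 4 (r = 0.18) and w replicate 3 (r = 0.21) most members lie near 0 whatever their count in 51B/+ replicate 3.

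The number of the replicate was also examined, with the 8 libraries of the other 4 strains and strain as a covariate. Between replicate 3 and replicate 4, edgeR called 9.92% of 12732 genes and 2 of the 107 members tested, both higher in replicate 3. CG6220 (2R, 13691707 to 13693369) had 12 and 0 counts in 51B, 14 and 2 in V966M/+, 17 and 0 in V966M, and 13 and 0 in w (log2 fold change 3.74, SE 0.82, edgeR adjusted p = 0.0534). CG2127 (2R, 8368344 to 8370038) had 9 and 2, 12 and 2, 13 and 1, and 14 and 1 counts in the same order (2 on the log2 scale, SE 0.54, edgeR adjusted p = 0.081). Both were higher in replicate 3 in 4 of 4 strains. CG13337 was the next (2.49, SE 0.79, edgeR adjusted p = 0.114), and DESeq2 called 0 members and 14.2% of all genes. The 107 members had a median log2 fold change of 0.45, beside 0.04 over all genes. Of them 75 were higher in replicate 3, where 54.5% of all genes were higher. These calls changed with the library left out. Without V966M replicate 3, V966M replicate 4, w replicate 3 or w replicate 4 edgeR called 0 members. Calls over all genes then dropped to 23, 39, 6 and 6, beside 1263 with all 8 libraries. Without either library of 51B it called 3 members, and without either library of V966M/+ it called 2. A strain left with 1 library adds nothing to this contrast.

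Members shared features of position and structure that the rule had not used. Of the 219 protein-coding members, 19 (8.68%) were on the X chromosome, beside 16% of 11790 other protein-coding genes tested. The shares on the large autosomal arms lay nearer to those of the other genes. They were 22.8% on 2L (17.9% of the others), 23.3% on 2R (20.5%), 17.8% on 3L (19.8%) and 27.4% on 3R (24.9%). Their genes were short and simple: 66 (30.1%) had a single block of exon sequence, beside 13.5% of the others, and the median was 2 blocks and 1448 bases of exon, beside 4 blocks and 1873 bases. A neighbouring gene was a member for 34 (15.5%) of the members and for 2.6% of the others. These 34 fell into 16 runs of adjacent members, of which the longest held boly, CG18449, CG2127 and CG8701 (2R, 8365550 to 8372142). S-Lap1 with S-Lap2 (3L, 8617235 to 8622091), Mst84Dc with Mst84Db (3R, 7364254 to 7365627), dj with djl (3R, 7059315 to 7061919), Mst98Ca with Mst98Cb (3R, 28291338 to 28293863) and tHMG1 with tHMG2 (3R, 22491829 to 22493746) were pairs of related neighbours. Reads were counted without regard to strand, and 64 members (29.2%) overlap a gene on the opposite strand, CG2127, CG6220, CG12699, CG7886 and fest among them, so their reads cannot be assigned with certainty.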

How the data were processed

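The paper names both poly(A)+ and rRNA-depleted RNA of whole female larvae as input of the libraries, which were sequenced as 50 bp single-end reads. The authors trimmed reads with cutadapt 1.10 (quality cutoff 20, minimum length 25), aligned them to dm6 with HISAT2 2.0.4 and counted them over the exons of FlyBase 6.11 genes with featureCounts 1.5.0-p3, without strand. The deposited values are these raw counts per gene, and all 10 columns were mapped to a labelled sample. Groups followed the strain label.

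CPM was count over column total. Symbols, coordinates and exon lengths came from Ensembl release 115 (dm6), which held 17210 of the 17402 identifiers. Counts were tested with edgeR 4.0.16 in R 4.3.3 (TMM, robust glmQLFit, glmQLFTest, Benjamini-Hochberg over all genes with at least 10 summed counts). The fit of 51B/+ against w used all 10 libraries, the other strain contrasts used 9, without 51B/+ replicate 3, and the replicate contrast used 8. SE was the fold change over the root of F. The test was checked on simulated data, with 4-fold changes set in 200 of the better expressed genes in all libraries of an arm. In 51B against w edgeR recovered 99% of them. The median member was at only 0 to 0.0493 CPM in the other 9 libraries, so this check does not show what could be found among the members. DESeq2 1.42.0, RLE scaling, other count filters, the replicate block and leaving out each library were alternatives.

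Genes named were the 12 members with the highest CPM, up to 5 members of each list, the genes beside each threshold, the members with the smallest p in fits without the choosing library, and pairs of testis and general forms. Others were named after their values were seen. Members and lists were chosen with earlier results of these data known. 5 list symbols were not matched and were not analysed here.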

Additional observations from a re-analysis of the deposited data

How the results depend on the processing

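The set held 557 genes with a minimum of 10 counts and 34 with a minimum of 100, and between 157 and 254 with a fold of 8 or 3, with TMM-scaled CPM or with any other library left out. Members called between 51B/+ and w numbered 0 in edgeR, 13 in DESeq2 and 1 (CG13445) after filterByExpr, which left 12 members to test, and leaving out 1 library gave 0 to 196. With the replicate block edgeR called 29 members there, and 0 as before in the other strain contrasts, while calls over all genes became 580 in 51B against w (253 without the block), 416 in V966M/+ against w (200), 184 in 51B/+ replicate 4 against w (106) and 31 in V966M against w (19). Deviations of same-numbered libraries correlated with r of 0.04 to 0.42 between strains, and the labels do not say that a number marks a shared batch. In 51B against w DESeq2 called 1 member (CG13445). Between replicate 3 and replicate 4 the 2 calls became 0 with DESeq2 and 0 after filterByExpr, and 0 to 3 when 1 library was left out. The other alternatives kept each count of members called. Depth limits the set: 106 members had 30 to 49 counts in the library that chose them, and without it 113 of the 222 had too few counts to be tested.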
